A study of Mus musculus with 8 samples.

Results

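The Krüppel-like factors (KLFs) examined here were the 10 genes Klf2, Klf3, Klf4, Klf5, Klf6, Klf7, Klf9, Klf10, Klf13 and Klf15, taken by symbol from the 22274 genes of the deposited table. KLFs are DNA-binding proteins with 3 zinc fingers at the carboxyl terminus that recognise GC-rich and CACCC-containing elements, which they share with the related SP factors. Outside the fingers the proteins differ, so that some recruit coactivators and others recruit corepressors to the same kind of element. In heart and vessel wall several of them are known as regulators of smooth muscle and fibroblast state, and Klf10 is also called TGF-β-inducible early gene 1. The libraries were made from primary murine cardiac fibroblasts, the cells that make most of the collagen of the heart, and every culture had received TGF-β, the cytokine that turns them into contractile myofibroblasts. Of the 8 libraries, 4 were labelled GFP, from cells given the control virus, and 4 labelled OEIRF7, from cells given a virus encoding the transcription factor IRF7. No untreated cells without TGF-β were among them, and strain, sex, age and the number of animals behind the cultures are not in the labels. Nothing in the labels says that replicates were separate cultures, so the p-values measure the spread between these libraries, which may be technical. A legend of the study gives fewer biological replicates than there are libraries per label and does not say which libraries these were, so all of them were used.

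Of the 10 genes, 6 were higher in the libraries labelled OEIRF7 (Klf2, Klf4, Klf5, Klf6, Klf9 and Klf10), 2 were lower (Klf3 and Klf15) and 2 did not pass the test (Klf7 and Klf13), when 13533 genes were compared by edgeR's quasi-likelihood test and called at an adjusted p of less than 0.05. The largest rise was that of Klf10, which reached 2.0-fold, and the largest fall was that of Klf15, to 0.509 of its level. These counts have to be read against a wide background, since 58.9% of all tested genes passed the same test, 29.0% higher and 29.9% lower. The study's methods set other limits, a p of less than 0.05 before adjustment with a fold change above 1.5 or below 0.66. By these Klf4, Klf5 and Klf10 were higher and Klf15 was lower, where 19.0% of all tested genes were past these limits, 9.47% higher and 9.56% lower. The median log2 fold change of the 10 genes was 0.29, against 0.00153 over all tested genes, and the median size of change without its sign was 0.34 against 0.25.

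**Figure D1:**
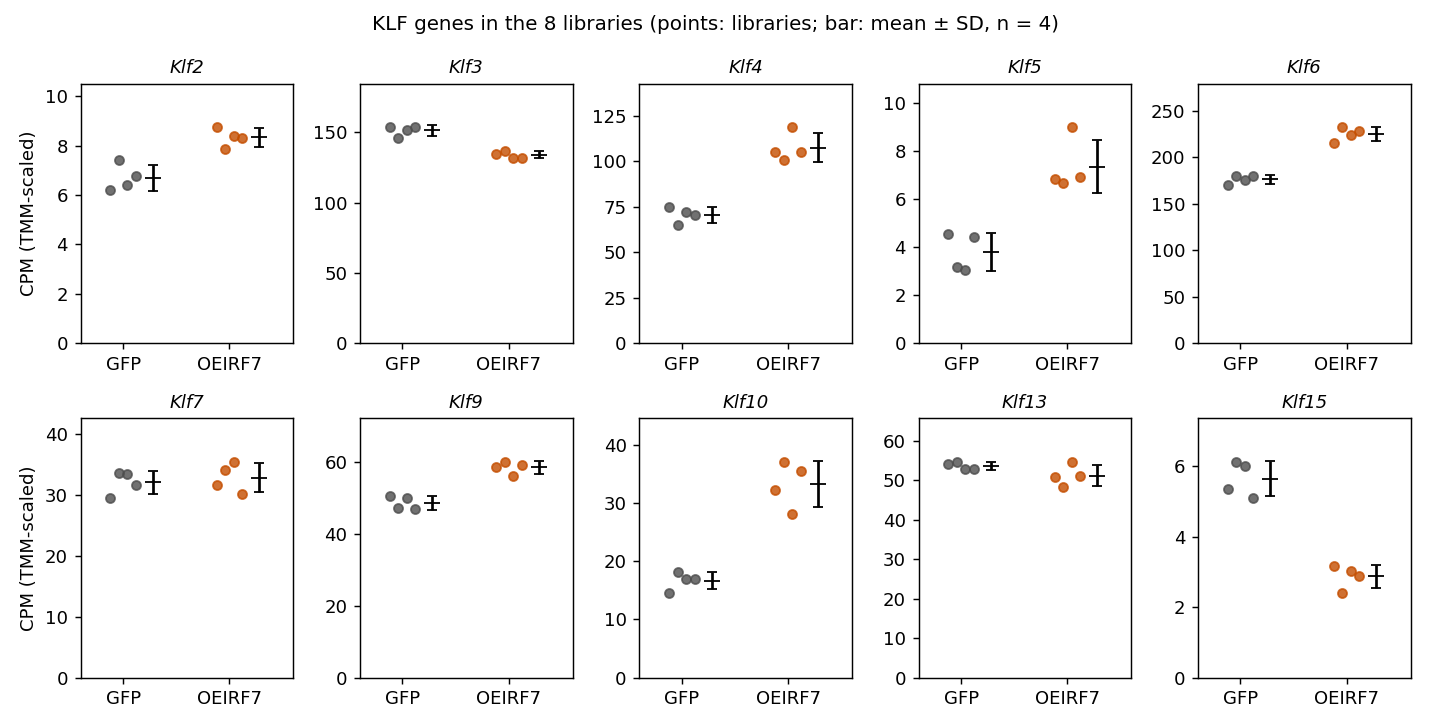
Values of the 10 KLF genes in each library, in CPM (counts scaled to the library size after TMM normalization), on linear axes from 0. Points are libraries and the bar is the mean with its SD (n = 4 per label). Klf10 lies between 14.6 and 18.1 CPM under the label GFP and between 28.1 and 37.1 under the label OEIRF7, whereas the points of Klf7 and Klf13 overlap.

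The total count per library lay between 24454801 and 28658826, and replicates differed from each other by more than counting noise (the chi-square of a pair was 2.69 to 8.67 times its degrees of freedom). Mouse Irf7 was examined as the targeted gene and had 2272 to 3680 counts in the libraries labelled GFP but 380 to 421 in those labelled OEIRF7 (log2 fold change -2.96 ± 0.121 SE, adjusted p = 7.7e-11 by edgeR). For the fibroblasts of this RNA-seq experiment the study's text names an adenovirus. The IRF7 adenovirus in its reagent list carries the human gene, whose transcript these counts of mouse genes do not measure. The series description speaks instead of an adeno-associated virus. The listed vector of that kind is named for mouse Irf7 under a periostin promoter, and the study describes its injection into mice. For that vector a fall of mouse Irf7 would go against the label. Directions are therefore given between the libraries as labelled. The fibroblast markers differed widely in level, with Col1a1 at 4560 and 4070 CPM (label GFP first), Tcf21 at 58.3 and 23.1 and Lum at 12.9 and 10.1. The cardiomyocyte genes Myh6, Actc1, Myl2 and Ryr2 did not pass the filter on low counts, whereas Tnnt2 and Ttn did. In bulk RNA fewer cells of a type and less RNA per cell cannot be told apart.

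The start regions of 8 of the 10 genes were read from RefSeq (GRCm38.p6), 250 bases before and 50 bases after the annotated start, to show the sequence around the starts of genes that moved in opposite directions. Klf5 and Klf10, the genes with the largest rises, had no start region in the reference at hand. Those of 2 higher genes, Klf2 (chr8:72318812-72319111, plus strand) and Klf4 (chr4:55532426-55532725, minus strand), and of the 2 lower genes, Klf3 (chr5:64803271-64803570, plus strand) and Klf15 (chr6:90462326-90462625, plus strand), are printed 5′ to 3′ on the strand of the gene. Capitals mark the KLF element CACCC or, where it lies on the other strand, its complement GGGTG.
Klf2: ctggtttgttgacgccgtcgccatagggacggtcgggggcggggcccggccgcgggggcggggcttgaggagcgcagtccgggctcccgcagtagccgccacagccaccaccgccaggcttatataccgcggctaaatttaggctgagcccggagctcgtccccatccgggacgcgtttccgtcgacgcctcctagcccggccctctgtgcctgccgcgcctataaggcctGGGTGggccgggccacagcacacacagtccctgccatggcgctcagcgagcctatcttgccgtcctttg
Klf4: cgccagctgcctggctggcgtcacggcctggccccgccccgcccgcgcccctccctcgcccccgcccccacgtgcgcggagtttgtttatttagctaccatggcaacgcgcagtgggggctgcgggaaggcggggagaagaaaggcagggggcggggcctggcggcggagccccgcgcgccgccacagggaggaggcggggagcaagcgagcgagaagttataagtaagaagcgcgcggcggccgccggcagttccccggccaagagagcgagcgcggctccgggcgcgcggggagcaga
Klf3: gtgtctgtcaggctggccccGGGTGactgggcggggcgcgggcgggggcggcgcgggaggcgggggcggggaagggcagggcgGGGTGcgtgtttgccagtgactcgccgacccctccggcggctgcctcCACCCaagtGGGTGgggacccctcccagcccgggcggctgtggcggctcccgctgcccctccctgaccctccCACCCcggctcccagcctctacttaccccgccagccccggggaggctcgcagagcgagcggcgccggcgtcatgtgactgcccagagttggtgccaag
Klf15: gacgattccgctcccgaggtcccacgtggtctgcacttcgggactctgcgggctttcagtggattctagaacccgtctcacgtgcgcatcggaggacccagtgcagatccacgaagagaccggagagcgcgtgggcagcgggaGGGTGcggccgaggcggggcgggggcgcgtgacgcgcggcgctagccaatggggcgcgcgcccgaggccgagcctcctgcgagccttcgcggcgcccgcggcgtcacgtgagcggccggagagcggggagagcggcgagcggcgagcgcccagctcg

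The element CACCC, searched on both strands, was found 5 times in the window of Klf3, between -230 and -48 relative to the start, and 1 time each in those of Klf2 (-19), Klf15 (-107), Klf9 (-84) and Klf13 (-22). The window of Klf7 held 3, at -138, -131 and -111, and those of Klf4 and Klf6 held none. Among all 32851 start regions of this length, 57.5% held the element, and the 6 windows that held it here belong to higher, lower and uncalled genes alike. GC content was 76.7% in Klf3, 74.3% in Klf4, 73.3% in Klf15 and 69.3% in Klf2. None of the 8 windows held GAAANNGAAA, the repeat that interferon regulatory factors bind, which 3.44% of all start regions held. Nor did any hold ACANNNTGT, a form of the element of the glucocorticoid receptor, which 6.85% held. Klf5 and Klf10 were not searched. That a motif is missing says only that these letters are not in this window.

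Klf2, Klf4 and Klf5 belong to the branch of the family whose members mostly activate transcription through coactivators. Klf4 (ENSMUSG00000003032, chr4:55527143-55532466) is known from reprogramming to pluripotency and from the loss of contractile genes in smooth muscle cells. It had 74.8, 64.8, 72.2 and 70.4 CPM in the libraries labelled GFP and 105, 101, 119 and 105 CPM in those labelled OEIRF7. The groups were far apart, with the lowest library labelled OEIRF7 well above the highest labelled GFP. The mean rose from 70.6 ± 4.22 to 107 ± 8.22 CPM (SD, n = 4 per label), a log2 fold change of 0.60 ± 0.0555 SE (adjusted p = 3e-07, edgeR). Its 1.52-fold rise was the member just inside the study's limit of 1.5, and the next below it was the 1.28-fold rise of Klf6. Without replicate 2 of the label GFP or replicate 3 of the label OEIRF7 the log2 fold change was 0.56 and 0.55, and Klf4 was then no longer past that limit.

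Klf5 (ENSMUSG00000005148, chr14:99298691-99315036), a factor that promotes growth of smooth muscle cells and fibroblasts, rose about as much as Klf10 but from a far lower count. It had 4.52, 3.16, 3.04 and 4.39 CPM under the label GFP and 6.82, 6.65, 8.99 and 6.89 CPM under the label OEIRF7, resting on 75 to 121 and 170 to 229 counts. All 4 libraries labelled OEIRF7 were higher, and replicate 3 stood above the other three of its label. The mean rose from 3.78 ± 0.783 to 7.34 ± 1.11 CPM (SD, n = 4 per label), and the log2 fold change was 0.95 ± 0.149 SE (adjusted p = 6.6e-05, edgeR). It was 0.60 on the log2(FPKM + 1) scale, which understates changes of low genes. Klf2 (ENSMUSG00000055148, chr8:72319033-72321656), best known as the flow-induced factor of quiescent endothelium, had 6.2, 7.41, 6.4 and 6.75 CPM under the label GFP and 8.76, 7.86, 8.4 and 8.31 CPM under the label OEIRF7. The groups lay close together but did not overlap. The mean rose 1.25-fold, from 6.69 ± 0.533 to 8.33 ± 0.371 CPM (SD, n = 4 per label), with a log2 fold change of 0.32 ± 0.0886 SE (adjusted p = 0.0066, edgeR).

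Klf6 and Klf7 form another pair of activators. Klf6 (ENSMUSG00000000078, chr13:5861482-5870394), a widely expressed gene that is induced by injury and acts as a growth suppressor in several epithelia, had 170, 180, 176 and 180 CPM in the libraries labelled GFP and 216, 233, 224 and 228 CPM in those labelled OEIRF7. Its replicates were tight and the groups were well separated. The mean rose from 176 ± 4.89 to 226 ± 7.13 CPM (SD, n = 4 per label), 1.28-fold, with a log2 fold change of 0.35 ± 0.0349 SE (adjusted p = 6.2e-07, edgeR). Klf7 (ENSMUSG00000025959, chr1:64029447-64122282), known from the outgrowth of neurons, had 29.6, 33.7, 33.5 and 31.7 CPM under the label GFP and 31.7, 34.2, 35.5 and 30.1 CPM under the label OEIRF7. The groups overlapped. Its log2 fold change was 0.04 with a 95% interval from -0.0949 to 0.169 (adjusted p = 0.63, edgeR), an interval that leaves out a change as large as that of Klf6.

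Klf3 is the member of the set that represses through the corepressor CtBP. It (ENSMUSG00000029178, chr5:64803388-64832901) had 154, 146, 152 and 154 CPM under the label GFP and 135, 137, 132 and 132 CPM under the label OEIRF7. The fall was small but every library labelled OEIRF7 was below every library labelled GFP. The mean fell from 152 ± 3.56 to 134 ± 2.61 CPM (SD, n = 4 per label), to 0.883 of its level, with a log2 fold change of -0.18 ± 0.0329 SE (adjusted p = 0.00028, edgeR). In the deposited FPKM values, which weigh gene length and come from another program, Klf3 had 34.76, 30.87, 31.83 and 36.76 under the label GFP and 28.67, 33.66, 30.07 and 32.91 under the label OEIRF7. There the groups overlapped, and limma on log2(FPKM + 1) gave a log2 fold change of -0.0957 with an adjusted p of 0.24.

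Klf9, Klf10 and Klf13 carry a domain that binds the corepressor Sin3a. Klf10 (ENSMUSG00000037465, chr15:38291463-38300706), the TGF-β-inducible early gene, had 14.6, 18.1, 16.9 and 16.9 CPM in the libraries labelled GFP and 32.3, 37.1, 28.1 and 35.4 CPM in those labelled OEIRF7. The separation was wide. The mean rose from 16.6 ± 1.48 to 33.2 ± 3.92 CPM (SD, n = 4 per label), with a log2 fold change of 1.0 ± 0.0867 SE (adjusted p = 1.6e-07, edgeR). Of the 10 genes this was the largest change, and its size exceeded that of 91.4% of all tested genes.

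Klf9 (ENSMUSG00000033863, chr19:23141226-23168134), which glucocorticoids and thyroid hormone induce in many tissues, had 50.6, 47.2, 50.1 and 47.0 CPM under the label GFP and 58.7, 60.2, 56.2 and 59.2 CPM under the label OEIRF7. The groups were apart by more than the spread within either. The mean rose 1.2-fold, from 48.7 ± 1.9 to 58.6 ± 1.68 CPM (SD, n = 4 per label), with a log2 fold change of 0.27 ± 0.0416 SE (adjusted p = 6.5e-05, edgeR). Klf13 (ENSMUSG00000052040, chr7:63886351-63938915), known from heart development and from T cells, had 54.1, 54.7, 52.9 and 52.7 CPM under the label GFP and 50.8, 48.2, 54.7 and 51.0 CPM under the label OEIRF7. Replicate 3 of the label OEIRF7 lay within the range of the label GFP. The log2 fold change was -0.07 with a 95% interval from -0.161 to 0.0256 (adjusted p = 0.2, edgeR).

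Klf15 (ENSMUSG00000030087, chr6:90462576-90475238), a glucocorticoid-induced regulator of metabolism that is also known as a restraint on growth of heart muscle and on connective tissue growth factor in cardiac fibroblasts, was lower, as Klf3 was, where 6 of the 10 genes were higher. It had 5.34, 6.13, 6.0 and 5.11 CPM under the label GFP and 3.18, 2.41, 3.02 and 2.88 CPM under the label OEIRF7, resting on 134 to 153 and 70 to 82 counts. No library of either label came near the range of the other. The mean fell from 5.64 ± 0.496 to 2.87 ± 0.331 CPM (SD, n = 4 per label), with a log2 fold change of -0.98 ± 0.127 SE (adjusted p = 1.1e-05, edgeR). On the log2(FPKM + 1) scale its log2 fold change was -0.61.

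The groups did not overlap in 8 of the 10 genes, the same 8 that passed the test, and in 53.8% of all tested genes. For each of the 8 a two-sided exact permutation test on log2 CPM gave p = 0.029, the smallest that 4 libraries against 4 allow, and it gave p = 0.57 for Klf7 and p = 0.11 for Klf13. Klf13 overlaps a gene on the opposite strand that had no count in any library, and Klf3, Klf7 and Klf13 overlap noncoding genes on the opposite strand that are not in the table. The strand setting of the counting is not given in the sources used here, so reads of such partners may have entered the counts of the 3 genes. On the same strand, Klf3 overlaps C230096K16Rik, Klf7 overlaps Mir6899 and Klf9 overlaps Mir1192, which are not in the table either. All these overlaps are of whole gene spans, introns included. Overlap of exons was not examined, so whether reads of any partner were counted for the KLF genes is not known.

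Levels of different genes can be compared only per length, for which the deposited FPKM were used. In the libraries labelled GFP, Klf6 was highest with a mean of 41.5 ± 1.35 FPKM, followed by Klf3 (33.6 ± 2.7) and Klf4 (23.2 ± 1.23). Below them came Klf9 (10.8 ± 0.421), Klf13 (8.89 ± 0.299), Klf10 (5.67 ± 0.721), Klf7 (5.06 ± 0.527), Klf2 (3.59 ± 0.287), Klf15 (2.4 ± 0.195) and Klf5 (1.12 ± 0.233), each the mean FPKM with its SD (n = 4). Of the neighbours in this order, Klf10 and Klf7 overlapped in their libraries and the others did not. In the libraries labelled OEIRF7, Klf6 stayed first with 54.6 ± 1.67 FPKM, while Klf4 (36.0 ± 2.44) stood above Klf3 (31.3 ± 2.35) and Klf5 (2.21 ± 0.321) above Klf15 (1.23 ± 0.141), both the reverse of the order under the label GFP and neither with overlap between the genes' libraries. Between these lay Klf9 (13.2 ± 0.44), Klf10 (11.2 ± 1.29), Klf13 (8.72 ± 1.07), Klf7 (5.55 ± 0.805) and Klf2 (4.55 ± 0.204), of which Klf10 overlapped Klf13 and Klf7 overlapped Klf2.

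**Figure D2:**
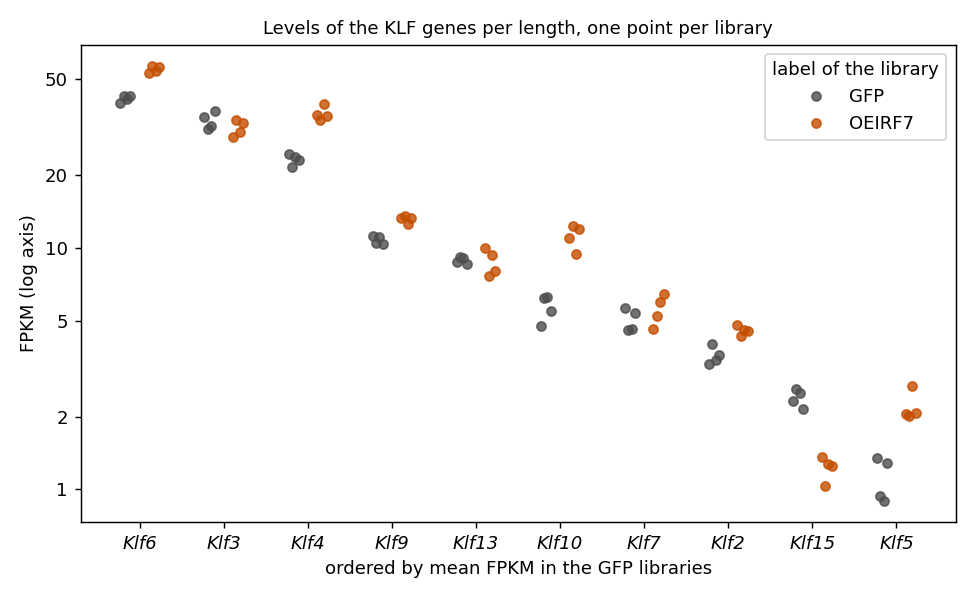
FPKM of the 10 KLF genes on a log axis, with 1 point for each library, ordered by the mean in the libraries labelled GFP. Klf4 passes Klf3, with means of 36.0 against 31.3 FPKM under the label OEIRF7, and Klf5 passes Klf15, with 2.21 against 1.23.

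The summed level of the 10 genes was 136 ± 2.7 FPKM under the label GFP and 169 ± 3.32 FPKM under the label OEIRF7 (SD, n = 4 per label), ranging from 133 to 139 and from 164 to 171. Most of this sum lay in 3 genes. Klf6 took 30.6% ± 1.15 and 32.4% ± 0.549 of it, Klf3 took 24.7% ± 1.51 and 18.6% ± 1.11, and Klf4 took 17.1% ± 0.827 and 21.3% ± 1.5 (SD, n = 4, label GFP first). The share of Klf10 was 4.18% ± 0.582 and 6.63% ± 0.737, and those of Klf5 and Klf15 stayed under 2% in every group mean.

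Whether related genes moved by different amounts was asked within each library for 5 pairs, as the difference of their log2 CPM, in which the scaling of the library cancels. Klf10 gained on Klf9, with a difference from -1.55 to -0.825, a gain of 0.729 (exact two-sided permutation test, p = 0.029, adjusted p = 0.036 over the 5 pairs). Klf9 gained 0.334 on Klf13, Klf6 gained 0.32 on Klf7, and Klf4 lost 0.353 to Klf5 in the sense that their difference went from 4.22 to 3.86, each with the same exact permutation p of 0.029 and adjusted p of 0.036. For Klf2 and Klf4 the difference went from -3.39 ± 0.199 to -3.67 ± 0.103 (SD, n = 4 per label), and the change of -0.287 did not pass the exact permutation test (p = 0.057, adjusted p = 0.057). The pair Klf6 and Klf7 depended on the unit, with a change of 0.268 and an adjusted p of 0.14 from the exact permutation test on FPKM, where Klf2 and Klf4 passed (-0.29, adjusted p = 0.036).

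The other KLF and SP genes were read from the same fit. Of 16 listed, Klf1, Klf14, Klf17, Sp7 and Sp8 did not pass the filter on low counts, and of the 11 tested, 1 was higher, 5 were lower and 5 did not pass, with a median log2 fold change of -0.19. Klf16, a Sin3-binding relative of Klf9 and Klf13, rose from 18.0 ± 1.02 to 22.2 ± 1.97 CPM (log2 fold change 0.30, adjusted p = 0.0021 by edgeR). Klf11, the closest relative of Klf10 and also called TGF-β-inducible early gene 2, fell from 6.57 ± 0.59 to 4.35 ± 0.619 CPM (log2 fold change -0.60, adjusted p = 0.00068 by edgeR). The broadly expressed factors Sp1 and Sp3, which bind the same GC boxes, fell from 83.2 ± 2.55 to 72.9 ± 3.35 CPM and from 92.5 ± 1.64 to 81.2 ± 2.63 CPM, both by 0.19 on the log2 scale. Sp4 fell by 0.45, and Sp9 fell by 1.57 at 20 to 27 counts per library under the label GFP and 5 to 11 under the label OEIRF7. The relatives of Klf3 that also bind CtBP, Klf8 and Klf12, had log2 fold changes of -0.62 and -0.20 and did not pass the test (adjusted p = 0.072 and 0.083, edgeR), nor did Sp2, Sp5 and Sp6. Without replicate 4 of the label OEIRF7, 2 genes of this list were higher. For scale, of the 486 tested genes that the table assigns to its family of C2H2 zinc fingers, a set that holds the 10 KLFs and was chosen after the columns of the table were seen, 20.6% were higher and 22.4% lower.

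**Figure D3:**
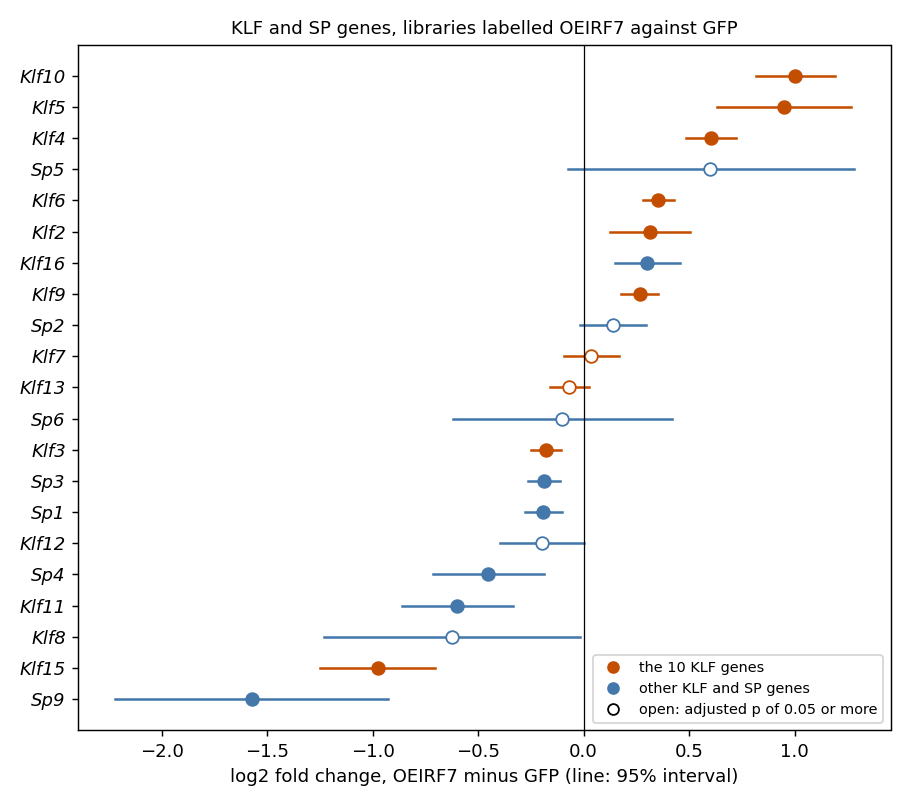
Log2 fold change (libraries labelled OEIRF7 against GFP) with its 95% interval for the 10 KLF genes and the 11 other tested KLF and SP genes, sorted. Filled points had an adjusted p under 0.05. Klf10, Klf5 and Klf4 are at the upper end with 1.0, 0.95 and 0.60, and Klf15 and Sp9 at the lower end with -0.98 and -1.57.

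Factors that act on KLF genes or proteins were read from the same fit, in which 29.0% of all tested genes were higher and 29.9% lower. The kinase ERK5 and its target MEF2 drive Klf2 and Klf4 in endothelium. Of 7 genes of this route, 3 were higher and 2 lower (median log2 fold change -0.09), and 1 was lower without replicate 3 of the label OEIRF7. Mef2a rose from 137 ± 3.19 to 171 ± 7.47 CPM and Mef2d from 71.8 ± 5.41 to 85.2 ± 2.41 CPM, log2 fold changes of 0.32 and 0.25. Mef2c, at a log2 fold change of -0.22, did not pass (adjusted p = 0.098, edgeR). The kinases at the top of the route differed in direction, with Map3k2 at a log2 fold change of 0.13 and Map3k3 at -0.18 (adjusted p = 0.013 and 0.005, edgeR). The kinase gene Map2k5 was lower too, at -0.15 (adjusted p = 0.018, edgeR). Mapk7, which encodes ERK5 itself, had a log2 fold change of -0.09 that did not pass (adjusted p = 0.19, edgeR).

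Klf9 and Klf15 are both classical targets of the glucocorticoid receptor, and here they moved in opposite directions. Of 8 receptors and response genes listed, 7 were tested, 1 was higher and 3 were lower (median log2 fold change -0.01), and Zbtb16 did not pass the filter. Without replicate 2 of the label OEIRF7, 2 were higher. The receptor gene Nr3c1 fell by 0.23, and the thyroid hormone receptor genes Thra and Thrb fell by 0.75 and 0.49 on the log2 scale (adjusted p = 7e-05, 3.7e-07 and 0.00024, edgeR). Of the response genes, Fkbp5 rose from 14.7 ± 1.19 to 25.4 ± 1.9 CPM (log2 fold change 0.79, adjusted p = 3e-07 by edgeR). Tsc22d3 and Per1, with log2 fold changes of -0.01 and 0.07, did not pass (adjusted p = 0.89 and 0.43, edgeR), so the common response genes did not move as 1 group.

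Of 11 genes of corepressors and coactivators, 5 were higher and 2 lower (median log2 fold change 0.08). The largest change was that of Kat2b, a histone acetyltransferase, which fell from 80.0 ± 2.43 to 42.5 ± 1.95 CPM, by 0.91 on the log2 scale. The CtBP genes, partners of Klf3, diverged, with Ctbp1 falling from 116 ± 3.87 to 83.8 ± 3.3 CPM (log2 fold change -0.47) and Ctbp2 at a log2 fold change of 0.39 (adjusted p = 1.2e-07 and 3.8e-07, edgeR). Sin3a and Sin3b, partners of Klf9, Klf10 and Klf13, rose by 0.18 and 0.17, and Fhl3, reported to work with Klf3, rose by 0.52. Of 6 ubiquitin ligases that act on KLF proteins, 2 were higher and 2 lower (median 0.03), among them Fbxo32 with a log2 fold change of 0.93, Wwp1, which targets Klf2 and Klf5, with -0.42, and Siah1a with -0.21. Siah1a did not pass without replicate 4 of the label GFP or replicate 1 of the label OEIRF7 (adjusted p = 0.057 and 0.068, edgeR), and 1 ligase instead of 2 was higher without replicate 1, 2 or 4 of the label GFP or replicate 3 or 4 of the label OEIRF7.

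Of 15 genes reported as targets of KLFs in other cells, 14 were tested, and 4 were higher and 7 lower (median log2 fold change -0.24). Over all tested genes 29.0% were higher and 29.9% lower. The lower ones were led by genes of contractile cells and growth factors. Acta2, the smooth muscle actin of myofibroblasts, fell from 2060 ± 74.3 to 581 ± 46.1 CPM, Cnn1, calponin, from 4.22 ± 0.326 to 1.72 ± 0.153 CPM, and Igf1 from 137 ± 5.52 to 63.7 ± 3.5 CPM, log2 fold changes of -1.83, -1.30 and -1.10 (adjusted p = 1.2e-12, 2e-06 and 7.7e-11, edgeR). The endothelial targets of Klf2 did not move as 1 group, since Thbd and Nos3 did not pass (adjusted p = 0.064 and 0.44, edgeR) and S1pr1 rose by 0.59. Smad7, an inhibitor of TGF-β signalling and a reported target of Klf10, rose by 0.39, and Plau and Cdkn1a rose by 0.96 and 0.28. Whether a KLF is reported to raise or to lower each target was not taken into account.

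Klf4, Klf6 and Klf10 are also transcribed within minutes of growth factor signals, so immediate early genes are given beside them. A legend of the study says that TGF-β was given for a day, so these are not levels within minutes of its addition. Of 13, 11 were higher and 2 lower (median log2 fold change 0.96), and their summed level went from 310 to 373 CPM under the label GFP to 584 to 703 CPM under the label OEIRF7. Fosl1 rose from 8.02 ± 1.02 to 37.1 ± 4.83 CPM, Egr2 from 4.29 ± 0.682 to 13.2 ± 1.84 CPM and Fosb from 2.05 ± 0.276 to 6.02 ± 0.392 CPM, while Zfp36 and Dusp1, which belong to the same class, fell by 0.28 and 0.53 on the log2 scale. Their part in the rise of the KLF genes was not tested.

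**Figure D4:**
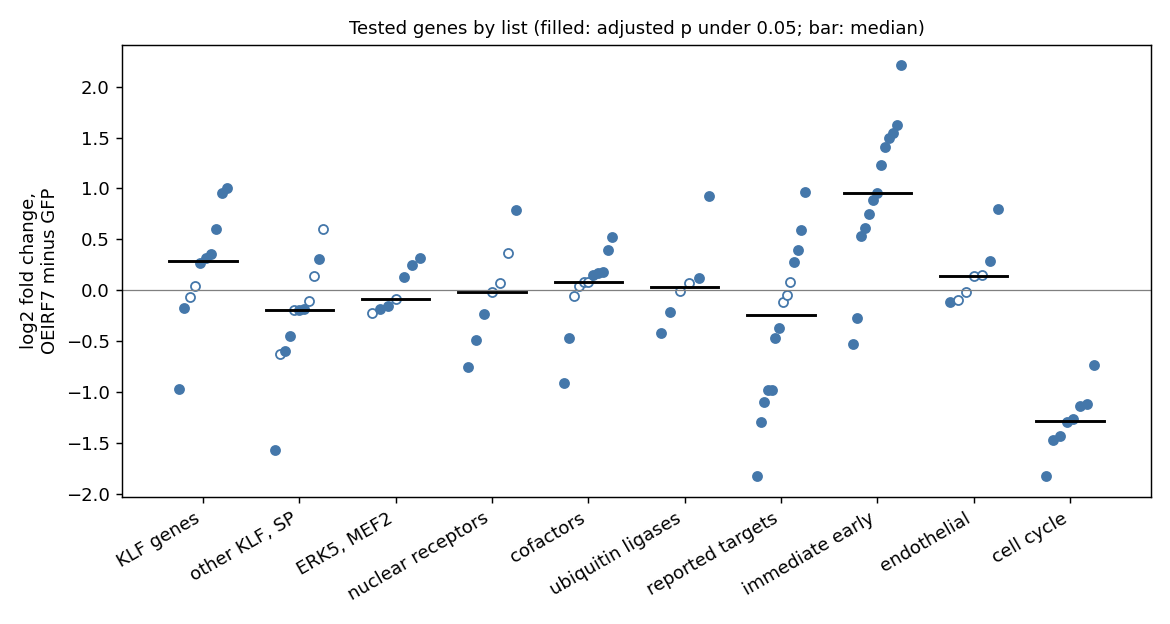
Log2 fold change of each tested gene by list (libraries labelled OEIRF7 against GFP), with filled points for an adjusted p under 0.05 and a bar at the median. The medians lie at 0.29 for the 10 KLF genes, 0.96 for the immediate early genes and -1.28 for the cell cycle genes.

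Several KLFs are strong in cell types that such cultures can hold, so markers of these cells are given. Their counts have to be read against all tested genes, of which 29.0% were higher and 29.9% lower. Of 7 endothelial markers, 2 were higher and 1 lower, their summed level ranged from 221 to 232 CPM under the label GFP and from 219 to 247 CPM under the label OEIRF7, and none was at 0. Kdr rose by 0.79 and Emcn by 0.29, Cdh5 was lower by a log2 fold change of -0.11 that did not pass without TMM scaling (adjusted p = 0.11, edgeR), in limma on either FPKM scale (adjusted p = 0.15 in both) or without replicate 1, 3 or 4 of the label GFP or replicate 1 or 3 of the label OEIRF7, and Pecam1 stood at 45.6 and 45.2 CPM. Of 6 macrophage markers, Adgre1, Lyz2 and Cd68 were higher by 0.44, 0.22 and 0.21 and none was lower, with summed ranges of 251 to 300 and 307 to 341 CPM. Lyz2 made up most of these sums, at means of 202 and 235 CPM. Adgre1 did not pass in limma on log2(FPKM + 1) or log2(FPKM + 0.1) (0.255 and 0.294, adjusted p = 0.13 in both). Cd68 did not pass without replicate 2 or 3 of the label GFP or replicate 2 or 4 of the label OEIRF7. Of 5 mural markers, 4 were tested, with Rgs5 and Des higher and Notch3 lower by a log2 fold change of -1.61, and sums of 42.6 to 50.1 and 19.0 to 25.7 CPM. Notch3 alone made up most of these sums, at means of 41.4 and 13.6 CPM. Des rested on 9 to 38 counts under the label GFP and 32 to 64 under the label OEIRF7, its groups overlapped, and with at least 10 counts required in every library it was not tested, which left 1 marker higher. Of 5 epicardial markers, Krt19 (log2 fold change 1.96) and Msln were higher and Upk3b (-1.32) was lower, with sums of 72.4 to 88.6 and 58.3 to 65.8 CPM. Upk3b had the highest mean of the 5 under both labels, at 51.8 and 20.8 CPM. The call of Msln (0.19) was lost with DESeq2 (adjusted p = 0.094), with a minimum of 1 count in total (adjusted p = 0.087, edgeR) and without any 1 of the 8 libraries. Of 6 cardiomyocyte markers, Tnnt2 was lower and Ttn did not pass, with sums of 10 to 13.8 and 8.56 to 9.92 CPM, and Myh6 was at or near 0.

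Of 9 fibroblast markers, 1 was higher and 5 lower (median log2 fold change -0.16), with sums of 10900 to 11500 and 9720 to 10500 CPM. Tcf21, a factor of resident fibroblasts, fell from 58.3 ± 6.13 to 23.1 ± 3.49 CPM and Col3a1 from 1650 ± 142 to 1140 ± 58.1 CPM, by 1.33 and 0.53 on the log2 scale, Lum was lower by a log2 fold change of -0.35 that was lost without replicate 1 or 2 of the label GFP (adjusted p = 0.064 and 0.11, edgeR) or replicate 3 or 4 of the label OEIRF7 (adjusted p = 0.075 and 0.061, edgeR) and in limma on log2(FPKM + 1) or log2(FPKM + 0.1) (adjusted p = 0.097 and 0.094), and Pdgfra rose by 0.25. All 8 cell cycle genes were lower (median log2 fold change -1.28), with sums of 84.9 to 91.2 and 35.5 to 41.5 CPM, led by Plk1 (-1.83), Ccna2 (-1.47) and Bub1 (-1.44). The part of cell mixture and of cell division in the values of the KLF genes was not tested.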

How the data were processed

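RNA-seq libraries of primary murine cardiac fibroblasts were grouped by the label GFP or OEIRF7 (4 each). According to the study's methods, the authors trimmed reads with Trimmomatic, mapped them to GRCm38 with HISAT2, obtained read counts with HTSeq-count and computed FPKM with Cufflinks. Versions and the strand setting of the counting are not given in the sources used here, and labels and methods name different library kits. The deposited counts are not normalized. The deposited FPKM are scaled to gene length and depth. The log2 fold changes, p-value and FDR columns and mean FPKM that the authors deposited are their own comparison and were not used. In the deposited table the letters nc were replaced by GFP, and symbols were restored by Ensembl identifier, of which 22219 of 22274 were found in GENCODE M21, the source of gene coordinates (GRCm38).

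The count analysis used edgeR 4.0.16 in R 4.3.3 (filterByExpr, TMM factors 0.989 to 1.01, glmQLFit and glmQLFTest, Benjamini-Hochberg adjustment over 13533 genes, called at 0.05, common biological coefficient of variation 0.0562). Log2 CPM used a prior count of 2, and exact permutation tests were run on it. Members of same-subfamily pairs were compared within libraries. Alternatives were DESeq2 1.42.0, library size only, upper-quartile scaling, 2 other filters (1 count in total, 10 counts in every library), a replicate block, limma 3.58.1 on FPKM as log2 with 1 or 0.1 added (genes averaging over 0.1 FPKM), and each library left out. Genes were named by rule: all 10 KLFs, the other KLF and SP genes that passed, and the 3 largest changes that passed in each further list. Other list members were named after their values were seen. The members and lists were chosen with earlier results of these data known. No depth limit is set beyond counting and replicate error, and genes under about 1 CPM rest on few counts.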

Additional observations from a re-analysis of the deposited data

Results flagged for a closer look

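Among the libraries labelled OEIRF7, replicate 3 stood apart for Klf5, with 8.99 CPM against 6.65 to 6.89 CPM in the other 3. Its gap to the nearest library was 0.897 of the range of the group, above Dixon's 95% critical value for 4 samples. It was 1 of 22 groups of 4 libraries examined in this way, and chance gives about 1 in 20. Without this library the log2 fold change of Klf5 was 0.84.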

How the results depend on the processing

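Under 16 alternatives, Klf2, Klf4, Klf5, Klf6, Klf9, Klf10 and Klf15 kept their direction and passed the test each time, with log2 fold changes of 0.277 to 0.367, 0.549 to 0.634, 0.60 to 1.05, 0.334 to 0.396, 0.246 to 0.293, 0.869 to 1.07 and -1.03 to -0.609. Klf3 did not pass in limma on log2(FPKM + 1) or log2(FPKM + 0.1) (-0.0957 and -0.0984, adjusted p = 0.24 in both), which left 1 member lower in place of 2. The cause was not tested. Klf13 never passed. Klf7 never passed, and with 1 library left out its log2 fold change ranged from -0.00367 to 0.076, changing sign without replicate 1 of the label GFP (-0.00367) or replicate 3 of the label OEIRF7 (-0.000694). In the within-library pairs, on FPKM + 0.1 the change of Klf6 against Klf7 was 0.268 (adjusted p = 0.14, exact permutation test) and that of Klf2 against Klf4 was -0.29 (adjusted p = 0.036, exact permutation test).

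Labels share replicate numbers, but same-numbered libraries correlated only at 0.0792 to 0.138 in their deviations from the group means (others -0.158 to 0.0476), so they were not taken as pairs, although all 8 libraries correlated best with their own number. With the replicate number as a block in edgeR the same KLF genes passed, and of the genes named by the rule only Msln was lost (adjusted p = 0.069). The blocked log2 fold changes were 0.604 for Klf4, 0.956 for Klf5 and -0.976 for Klf15. An exact sign-flip test of the pairs cannot go below p = 0.125. For the genes that the naming rule took from the lists, 653 of 686 combinations with an alternative kept the direction and the side of the threshold and 33 no longer passed. Other list members given with values were not examined singly under the alternatives. The median log2 fold change of all genes lay between -0.0021 and 0.0366 in every setting, against 0.00153 in the main fit. The settings did not all cover the same genes.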
